A study of Saccharomyces cerevisiae with 23 samples.

Results

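The nuclear genes of the yeast respiratory chain and of its ATP synthase were followed over all 6 culture conditions of a microarray study. The set held 34 genes of 6256 on the array and was a fixed list of standard names. It comprised 3 NADH dehydrogenase genes (NDI1, NDE1 and NDE2), CYB2, 9 genes of complex III (COR1, QCR2, QCR6, QCR7, QCR8, QCR9, QCR10, CYT1 and RIP1), 7 of complex IV (COX4, COX6, COX7, COX8, COX9, COX12 and COX13), and 14 of ATP synthase (ATP1 to ATP5, ATP7, ATP14 to ATP20 and the inhibitor gene INH1; ATP6 and ATP8 are mitochondrial genes and are treated apart). All 34 had a probe and passed the filter on dim probes, so all 34 were tested.

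Total RNA came from Saccharomyces cerevisiae of strain BY4741a carrying pdr5Δ, which lacks a plasma membrane drug efflux pump. Every culture, untreated ones included, carried this deletion and grew in synthetic complete medium with 2% glucose, 0.25 mM EDTA (a chelator of divalent metal ions) and 0.1% DMSO. The groups were statin (5 µg/mL) with 1 mM CuSO4 (3 biological samples), statin with 2 mM ZnSO4 (2 samples, replicates 2 and 3), statin alone (3), CuSO4 alone (3), ZnSO4 alone (3) and untreated (3). The labels do not name the statin, a class of inhibitors of HMG-CoA reductase in sterol synthesis. Statin cultures were also diluted to an OD600 of 0.09 for the preculture and collected near 0.4, against 0.01 and 0.8 for cultures without statin. Statin and culture density therefore cannot be told apart in comparisons of cultures with against without statin. A sample was labelled with Cy3 and hybridised on a 2-colour array against 1 common reference, RNA pooled from the 6 conditions, labelled with Cy5. Each value below is therefore the log2 of sample over pool for a gene, and a change between groups is the difference between their mean log2 ratios.

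Yeast has no proton-pumping complex I. Electrons from NADH enter the chain through single-subunit dehydrogenases, Ndi1 facing the matrix and Nde1 and Nde2 facing the intermembrane space, and pass by way of ubiquinone to complex III (the cytochrome bc1 complex), to cytochrome c and to complex IV (cytochrome c oxidase), which reduces oxygen. Complexes III and IV pump protons, and ATP synthase uses the gradient to make ATP. These complexes hold heme, iron-sulfur clusters and, in complex IV, copper, and in yeast grown on glucose the genes of respiration are held low while sugar is fermented.

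PDR5, deleted per the labels, was well above background on 0 of 23 arrays. Of the other strain markers checked, HIS3 was so on 0 arrays, LEU2 on 2, URA3 on 6 and MET17 on 15. Signal reached at most percentile 6.92 for PDR5, 8.5 for HIS3, 7.74 for LEU2, 10.8 for URA3 and 10.2 for MET17. Genes of a cells (STE2 and STE6) were well above background on 23 of 23 arrays and MFA1, MFA2 and BAR1 on 21 or 22. The alpha-cell genes MF(ALPHA)1 and MF(ALPHA)2 were so on 15 and 14 arrays and STE3 on 22. MF(ALPHA)1 and MF(ALPHA)2 reached percentiles 18.5 and 8.01 of signal, and STE2 and STE6 62.3 and 73.9. STE3, at percentiles 18.8 to 29.7, was not lower than the a-cell genes BAR1 (13.6 to 25.4) and MFA1 (15.5 to 33.5), so it does not separate the mating types here. Replicate 1 of every group lay on the first slide (98.4 to 98.8% of spots well above background), replicate 2 on the second (95.7 to 97.4%) and replicate 3 on the third (77.1 to 89.9%). Across genes, samples of a group correlated at r = 0.737 to 0.915, except in statin with CuSO4, where the range was 0.273 to 0.763 and the lowest value lay between replicates 1 and 2. Replicate 3 of that group correlated at 0.763 with replicate 1 and 0.629 with replicate 2. With replicate 2 of statin with ZnSO4, however, replicate 1 had r = 0.143 and replicate 2 had 0.901. Which of these 2 samples stands apart is therefore not settled. Counts over all members that rest on the group are given below with and without its replicate 2. Among the 34 genes, both spots were well above background on all 23 arrays for 28, on 22 for QCR7, QCR9, QCR10, RIP1 and ATP14, and on 21 for ATP20. In bulk RNA, fewer cells that express a gene and less of its RNA per cell cannot be told apart, and nothing in the labels says how far the biological replicates were grown apart, so p-values measure the spread between these samples.

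Over the 6 groups, transcripts of these genes were lowest in statin cultures and highest in cultures that held copper. The group mean was lowest under statin alone for 29 of the 34 genes, lowest under ZnSO4 for NDE1 and NDE2, and lowest in untreated cultures for CYB2, QCR8 and INH1. It was highest in statin with CuSO4 for 20 genes, in CuSO4 alone for 12, in statin with ZnSO4 for COX9 and in statin alone for NDE2. A gene counted as changed when limma's moderated test gave a Benjamini-Hochberg adjusted p under 0.05 over all 5606 genes tested (two-sided). In the F test for any difference among the 6 groups, 33 of 34 members passed, where 68.4% of all genes tested passed. ATP18, a small membrane subunit of ATP synthase, was the exception (adjusted p = 0.175).

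**Figure D1:**
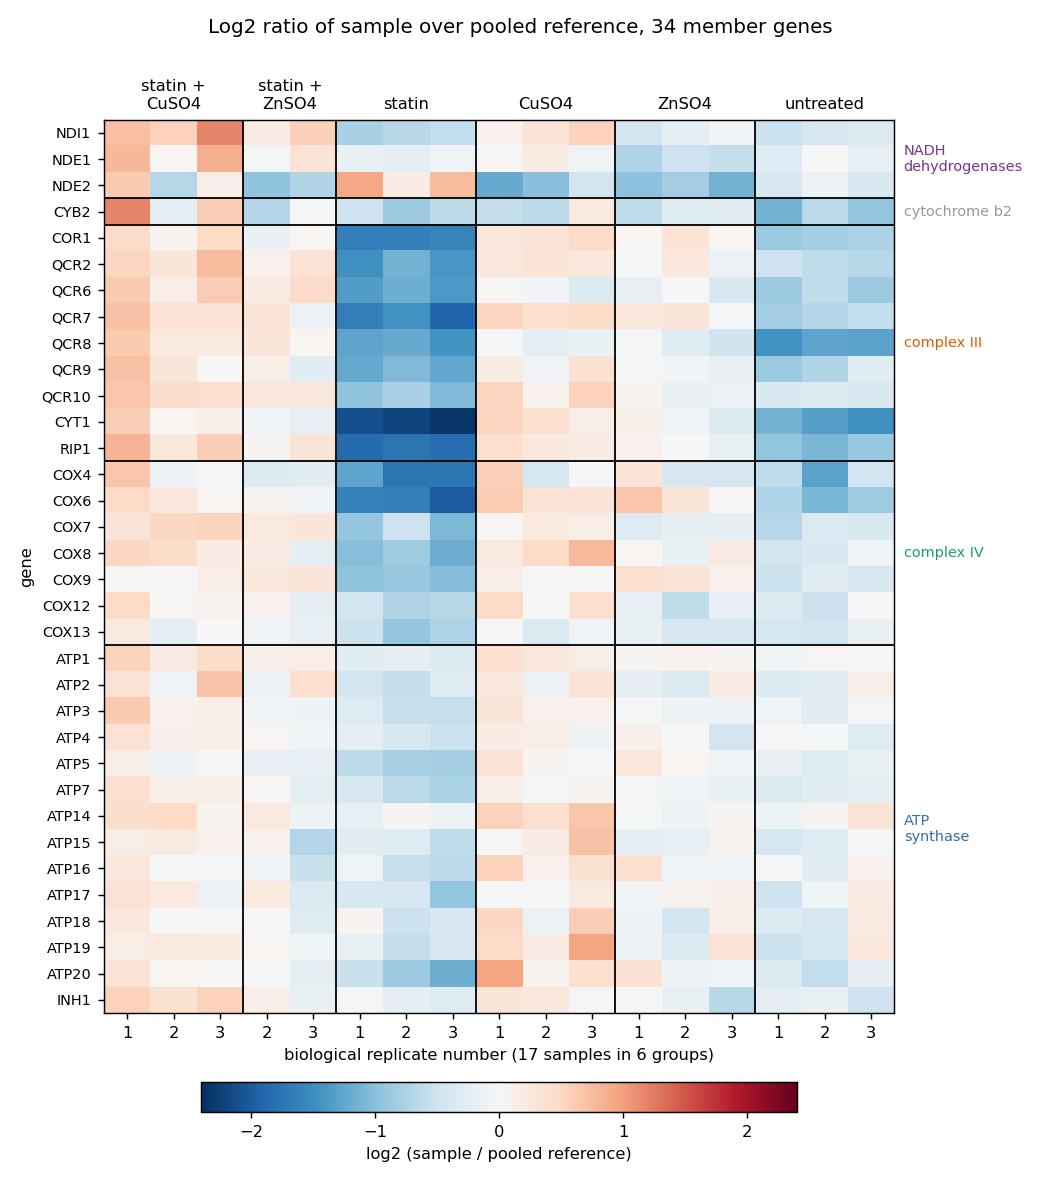
Log2 ratio of sample over pooled reference for the 34 genes (rows, by complex) in the 17 biological samples (columns, by group and replicate number); blue is below and red above the reference. The 3 statin samples are the darkest blue for complexes III and IV, down to -2.34 for CYT1, and NDE2 runs the other way, with 0.92, 0.17 and 0.76 in the statin samples.

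The complexes moved to different extents. The mean log2 ratio of the 9 complex III genes was 0.42 ± 0.20 (SD, n = 3) in statin with CuSO4, 0.11 ± 0.02 (n = 2) in statin with ZnSO4, -1.48 ± 0.10 (n = 3) in statin, 0.22 ± 0.07 in CuSO4, -0.04 ± 0.13 in ZnSO4 and -0.84 ± 0.04 in untreated cultures. The 7 complex IV genes had the same order at smaller distances, with 0.21 ± 0.15, 0.00 ± 0.08, -1.08 ± 0.12, 0.18 ± 0.14, -0.06 ± 0.15 and -0.49 ± 0.14 in the same groups. For the 14 ATP synthase genes the means lay between -0.44 ± 0.14 in statin and 0.26 ± 0.13 in CuSO4. In complexes III and IV, every statin sample lay below every untreated sample, and every untreated sample below every sample that held a metal. In ATP synthase the untreated samples (-0.26, -0.24 and -0.02) overlapped those of ZnSO4 (0.02, -0.13 and -0.04) and lay above the statin samples (-0.28, -0.47 and -0.56).

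**Figure D2:**
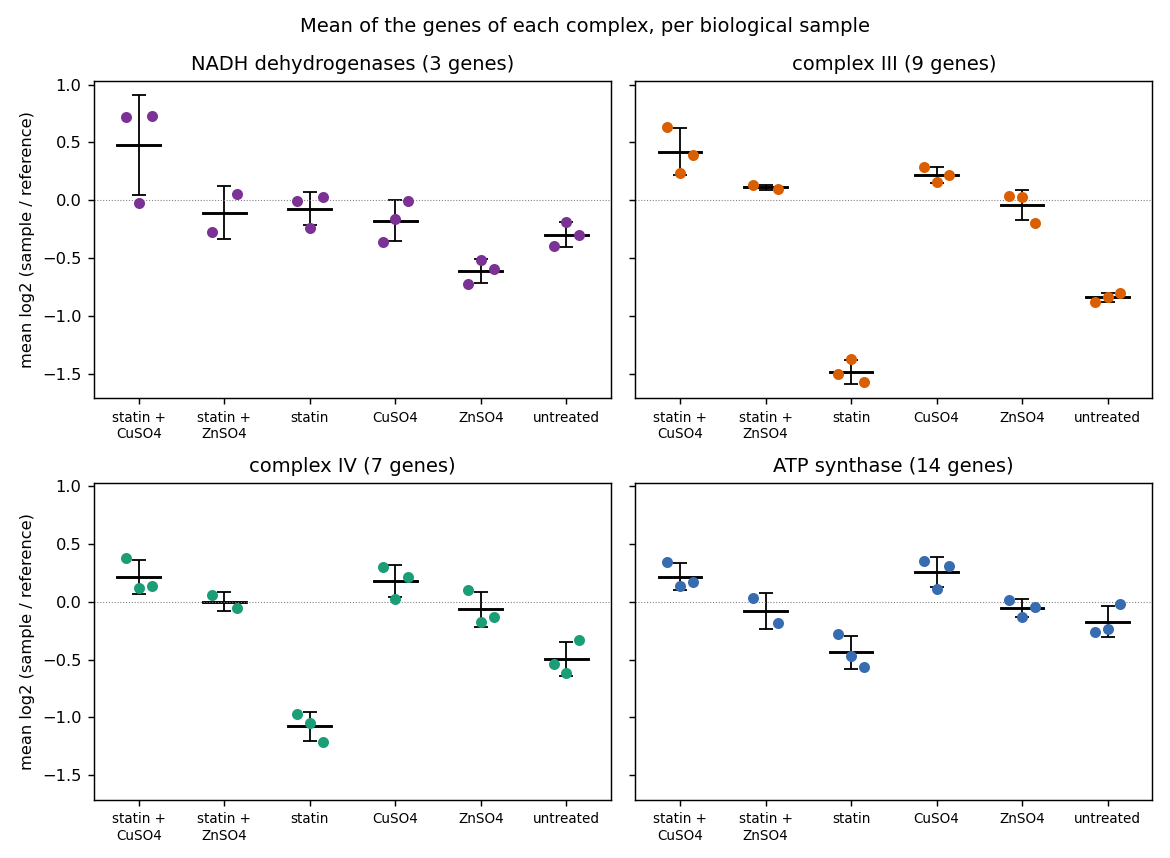
Mean log2 ratio over the genes of a complex in each biological sample (points), with the group mean (long bar) and SD (error bar), for 6 groups. Complex III spans the widest range, with the statin samples at -1.50, -1.37 and -1.58 and the statin with CuSO4 samples at 0.63, 0.23 and 0.39.

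Counted per comparison, the direction was almost uniform. With statin against untreated, 17 members fell and 1 rose, where 18.8% of all genes tested were lower and 18.0% higher, and the median change of the members was -0.36 against -0.01 over all genes tested. CuSO4 against untreated gave 24 higher and 0 lower (background 18.0% and 16.6%, 27 and 1 at an unadjusted p under 0.05 in limma), and ZnSO4 against untreated gave 9 higher and 0 lower (8.79% and 7.76%, 13 and 2 unadjusted), with medians of 0.57 and 0.20. Copper added to statin cultures raised 28 and lowered 0 (9.44% and 7.31%, 32 and 0 unadjusted; 27 higher without replicate 2 of statin with CuSO4), with a median of 0.91. Zinc added to statin cultures raised 20 and lowered 1 (11.7% and 10.3%), with a median of 0.59. The median over all genes tested lay between -0.04 and 0.01 in these comparisons. The count under statin depended on single samples: 10 members were lower without replicate 3 of statin and 11 without replicate 3 of untreated. Without the third slide, which a fit added after seeing the data left out, 8 were lower and 0 higher. With the slide as a block in the fit, 21 were lower. Of the called members, 10 of 18 under statin, 15 of 24 under CuSO4, 8 of 9 under ZnSO4, 23 of 28 for copper added to statin and 15 of 21 for zinc added to statin kept their call in all 17 fits that each left out 1 sample.

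**Figure D3:**
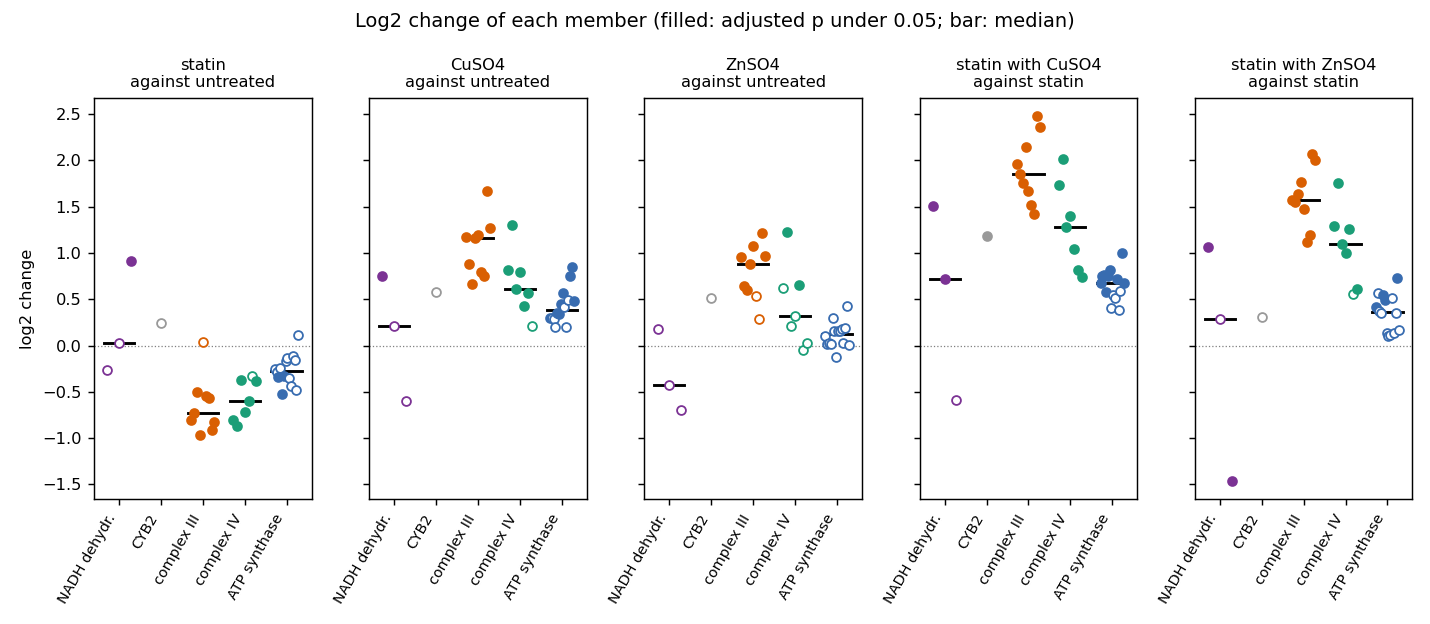
Log2 change of each of the 34 genes (points, by complex) in 5 comparisons; filled points have an adjusted p under 0.05 and the bar is the median of a complex. Complex III lies lowest with statin (median -0.73) and highest in the other 4 panels (medians 1.16, 0.88, 1.85 and 1.57), ATP synthase lies nearest to 0 among the complexes III, IV and ATP synthase, and NDE2 is the low NADH dehydrogenase point in the metal panels.

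Among the complexes on the member list, complex III had the largest median changes in all 5 of these comparisons. Succinate dehydrogenase, which is not on that list, had larger medians in the 4 metal comparisons and is given below. Statin lowered 8 of the 9 complex III genes (median -0.73), CuSO4 raised 9 of 9 (1.16), ZnSO4 raised 7 of 9 (0.88), and copper or zinc added to statin raised 9 of 9 (1.85 and 1.57). CYT1, which encodes cytochrome c1, the heme-bearing subunit that passes electrons to cytochrome c, had log2 ratios of 0.58, 0.05 and 0.15 in statin with CuSO4, -0.10 and -0.20 in statin with ZnSO4, -2.12, -2.20 and -2.34 in statin, 0.51, 0.39 and 0.16 in CuSO4, 0.13, -0.10 and -0.33 in ZnSO4, and -1.13, -1.33 and -1.48 in untreated cultures. The statin samples were lowest, the untreated samples next, and neither group overlapped any other. CYT1 fell 1.88-fold with statin (log2 -0.91 ± 0.15, SE of the fit, adjusted p = 0.000303), rose 3.17-fold with CuSO4 (1.66 ± 0.15, adjusted p = 1.96e-06) and 2.32-fold with ZnSO4 (1.21 ± 0.15, adjusted p = 7.85e-05), and rose 5.57-fold when copper and 4.20-fold when zinc was added to statin (2.48 ± 0.15 and 2.07 ± 0.17).

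RIP1 encodes the Rieske iron-sulfur protein, the other catalytic subunit of the complex made from a nuclear gene. Its log2 ratios were 0.81, 0.28 and 0.58 in statin with CuSO4, 0.06 and 0.32 in statin with ZnSO4, and -1.84, -1.75 and -1.83 in statin cultures. In cultures without statin they were 0.40, 0.25 and 0.18 with CuSO4, 0.11, 0.01 and -0.17 with ZnSO4, and -0.95, -1.10 and -0.91 untreated. The 3 statin samples lay close together and below every untreated sample, and all samples with a metal lay above every untreated one. Copper added to statin raised RIP1 5.15-fold (2.36 ± 0.13, adjusted p = 8.34e-09) and zinc 3.99-fold (2.00 ± 0.14, adjusted p = 1.79e-07), and without statin the changes were 1.26 ± 0.13 and 0.97 ± 0.13.

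The core proteins, which face the matrix and hold no metal, moved with the catalytic subunits. COR1 had 0.46, 0.06 and 0.48 in statin with CuSO4, -0.15 and 0.04 in statin with ZnSO4, -1.64, -1.63 and -1.61 in statin, 0.26, 0.31 and 0.47 in CuSO4, 0.05, 0.32 and 0.05 in ZnSO4, and -0.89, -0.82 and -0.76 in untreated cultures. Statin lowered it by 0.80 on the log2 scale (-0.80 ± 0.12, adjusted p = 8.81e-05), and copper or zinc added to statin raised it by 1.96 ± 0.12 and 1.57 ± 0.13. QCR2, the second core protein gene, changed by -0.73 ± 0.14 with statin, and by 1.85 ± 0.14 and 1.55 ± 0.15 when copper or zinc was added to statin. Both core genes rose with each metal alone, COR1 by 1.17 ± 0.12 and 0.96 ± 0.12 with copper and zinc, and QCR2 by 0.88 ± 0.14 and 0.64 ± 0.14.

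Among the small subunits, QCR8, a membrane subunit beside cytochrome b, was the 1 complex III gene without a call under statin. Its log2 ratios were 0.63, 0.23 and 0.23 in statin with CuSO4, 0.29 and 0.05 in statin with ZnSO4, -1.27, -1.20 and -1.43 in statin, -0.04, -0.23 and -0.16 in CuSO4, -0.03, -0.29 and -0.47 in ZnSO4, and -1.44, -1.27 and -1.29 in untreated cultures. The statin and untreated samples overlapped, and the change of 0.04 had a 95% interval of -0.25 to 0.32. The metals raised QCR8 as they did the rest of the complex, by 1.19 ± 0.13 and 1.07 ± 0.13 without statin (copper and zinc) and by 1.66 ± 0.13 and 1.48 ± 0.15 with it. QCR7, a subunit on the matrix side, fell by 0.96 on the log2 scale with statin (-0.96 ± 0.15, the greatest fall among the 34 genes) and rose 4.40-fold and 3.40-fold when copper and zinc were added to statin. QCR6, QCR9 and QCR10 fell by 0.50, 0.55 and 0.57 with statin, and QCR9 (0.53 ± 0.18, adjusted p = 0.0634) and QCR10 (0.29 ± 0.12, adjusted p = 0.144) did not pass with ZnSO4 alone. QCR9 and QCR10 both passed there after scaling between arrays (adjusted p = 0.0339 and 0.0449), and QCR9 also passed without the third slide, with only the groups compared and in 3 of the fits that left out 1 sample. The statin calls of QCR6 and QCR9 ended when single samples were left out, with adjusted p up to 0.0627 and 0.152.

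Complex IV followed the same pattern with smaller changes. Statin lowered 6 of the 7 genes (median -0.59), CuSO4 raised 6 (0.61), ZnSO4 raised 2 (0.32), copper added to statin raised 7 (1.28) and zinc added to statin raised 6 (1.09). COX6, the subunit whose mRNA is controlled by oxygen, heme and carbon source, varied most: 0.47, 0.26 and 0.04 in statin with CuSO4, 0.07 and -0.07 in statin with ZnSO4, -1.61, -1.67 and -2.0 in statin, 0.61, 0.30 and 0.31 in CuSO4, 0.66, 0.30 and 0.02 in ZnSO4, and -0.75, -1.09 and -0.85 in untreated cultures. All samples with a metal lay above all without, with and without statin alike. COX6 fell 1.82-fold with statin (-0.86 ± 0.17, adjusted p = 0.000867), rose 2.47-fold with CuSO4 and 2.33-fold with ZnSO4 (1.30 ± 0.17 and 1.22 ± 0.17), and rose 4.04-fold and 3.38-fold when copper and zinc were added to statin.

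COX9, a small subunit of the membrane part, and COX6 were the 2 complex IV genes that zinc alone raised, and COX4 also passed with the slide as a block (0.62, adjusted p = 0.0118). COX9 had 0.03, -0.00 and 0.16 in statin with CuSO4, 0.25 and 0.30 in statin with ZnSO4, -0.97, -0.92 and -1.05 in statin, 0.15, -0.01 and -0.01 in CuSO4, 0.39, 0.32 and 0.10 in ZnSO4, and -0.52, -0.24 and -0.38 in untreated cultures. It was the member with its highest mean in statin with ZnSO4, and the statin with ZnSO4 samples lay above the statin with CuSO4 samples, but the difference of statin with CuSO4 minus statin with ZnSO4 did not pass the test (-0.21 ± 0.11, adjusted p = 0.456). COX7 and COX8, further small membrane subunits, fell by 0.37 and 0.72 with statin, and rose by 0.61 ± 0.14 and 0.80 ± 0.16 with CuSO4 and by 1.28 ± 0.14 and 1.40 ± 0.16 with copper added to statin. COX4, which binds a structural zinc ion, fell by 0.80 with statin and rose by 0.81 ± 0.29 with CuSO4 (adjusted p = 0.0404), with samples spread within groups (0.57, -0.43 and -0.05 in CuSO4, -0.60, -1.28 and -0.46 untreated). Both of these calls ended in 4 of the 17 fits that left out 1 sample, with adjusted p up to 0.151 and 0.195.

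COX12 and COX13 had the smallest changes of complex IV with copper added to statin. COX12 had -0.33 ± 0.18 with statin (adjusted p = 0.152), and rose by 0.56 ± 0.18 with CuSO4 (adjusted p = 0.0218, up to 0.0991 when 1 sample was left out) and by 0.82 ± 0.18 with copper added to statin. COX13 fell by 0.39 with statin (-0.39 ± 0.14, adjusted p = 0.0437, up to 0.168 when 1 sample was left out) and had 0.21 ± 0.14 with CuSO4 (adjusted p = 0.274). It rose by 0.74 ± 0.14 and 0.61 ± 0.16 when copper and zinc were added to statin. COX7 was also close to the threshold under statin, and its call ended in 11 of 17 fits that left out 1 sample (adjusted p up to 0.201).

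ATP synthase had the smallest medians of complexes III, IV and ATP synthase. With statin, 3 of 14 genes fell, a share near the 18.8% of all genes tested (ATP3, ATP5 and ATP7, median of the 14 -0.27), and ATP3 lost its call in 12 of the 17 fits that left out 1 sample (adjusted p up to 0.149). CuSO4 raised 8 of 14 (median 0.38), ZnSO4 raised 0 of 14 (median 0.13, 1 higher at an unadjusted p under 0.05 in limma), copper added to statin raised 9 (0.67) and zinc added to statin raised 4 (0.36). None of the 14 fell in any of these 4 metal comparisons, with 0 lower also at an unadjusted p under 0.05. The 4 genes called with zinc added to statin were ATP1, ATP5, ATP7 and ATP20. These calls rest on 2 samples of statin with ZnSO4, too few to say how far they depend on either. Over the 17 fits that left out 1 sample, the changes ran from 0.40 to 0.44, 0.52 to 0.60, 0.36 to 0.63 and 0.58 to 0.89. ATP20 also lost its call without replicate 2 or 3 of statin. With the slide as a block, further ATP synthase genes passed as higher: ATP5 and ATP20 with ZnSO4 (adjusted p = 0.0141 and 0.0497), ATP2, ATP3 and ATP16 with CuSO4, ATP16 and ATP19 with copper added to statin, and ATP2, ATP3 and ATP4 with zinc added to statin. With copper added to statin the 14 genes ran from 0.38 to 0.99, and the 9 complex III genes from 1.42 to 2.48.

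In the catalytic F1 head, ATP1 and ATP2 encode the alpha and beta subunits and ATP3 the gamma subunit of the central shaft. ATP1 had 0.56, 0.19 and 0.44 in statin with CuSO4, 0.13 and 0.16 in statin with ZnSO4, -0.27, -0.24 and -0.32 in statin, 0.40, 0.27 and 0.14 in CuSO4, 0.07, 0.09 and 0.07 in ZnSO4, and -0.10, 0.04 and 0.01 in untreated cultures. The statin samples lay below all others, though the fall of ATP1 stayed short of the threshold (-0.26 ± 0.10, adjusted p = 0.0539). With the slide as a block in the fit, ATP1, ATP2, ATP4 and ATP20 also passed as lower under statin. Copper added to statin raised ATP1 1.59-fold (0.67 ± 0.10, adjusted p = 0.000172), ATP2 1.69-fold and ATP3 1.70-fold. ATP15 and ATP16, the epsilon and delta subunits of the shaft, had 0.55 ± 0.20 and 0.51 ± 0.18 (adjusted p = 0.0729 and 0.0670). ATP2 lost its call in 3 of the 17 fits that left out 1 sample (adjusted p up to 0.108). Without the third slide, and with only the groups compared, ATP2 did not pass and ATP15 did. The calls therefore do not set ATP2 apart from ATP15.

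The peripheral stalk keeps the head from turning. With statin, ATP5 fell by 0.53 on the log2 scale (-0.53 ± 0.12, adjusted p = 0.00255) and ATP7 by 0.33 (-0.33 ± 0.11, adjusted p = 0.0317). ATP5 had -0.63, -0.80 and -0.81 in statin and -0.18, -0.30 and -0.19 in untreated cultures, without overlap, and was the 1 ATP synthase gene whose statin call held in all 17 fits that left out 1 sample. Without the third slide, the statin call of ATP5 ended, as did those of ATP3 and ATP7. ATP7 had -0.39, -0.65 and -0.76 in statin and -0.35, -0.25 and -0.21 in untreated cultures, so that the groups nearly touched. When copper was added to statin, ATP4, ATP5 and ATP7 rose by 0.58 ± 0.14, 0.76 ± 0.12 and 0.82 ± 0.11. ATP14, the fourth stalk gene, had 0.41 ± 0.14 with copper added to statin (adjusted p = 0.0578) and rose with CuSO4 alone (0.45 ± 0.14, adjusted p = 0.0214).

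Of the membrane subunits, ATP20, which helps hold 2 ATP synthases together as a dimer, varied most. Its log2 ratios were 0.33, 0.04 and 0.02 in statin with CuSO4, -0.04 and -0.22 in statin with ZnSO4, -0.54, -0.87 and -1.18 in statin, 0.95, 0.08 and 0.39 in CuSO4, 0.36, -0.13 and -0.10 in ZnSO4, and -0.34, -0.58 and -0.21 in untreated cultures. Statin samples overlapped untreated ones, and the change did not pass (-0.48 ± 0.21, adjusted p = 0.0816). Copper raised ATP20 by 0.85 ± 0.21 alone and by 0.99 ± 0.21 when added to statin, and zinc added to statin raised it by 0.73 ± 0.23 (adjusted p = 0.0356, up to 0.192 when 1 sample was left out). ATP17 and ATP19 passed with copper in 1 setting each, ATP17 when copper was added to statin (0.72 ± 0.20, adjusted p = 0.0212) and ATP19 with CuSO4 alone (0.75 ± 0.22), and ATP18 passed in none of the 5 comparisons. ATP17 lost its call without replicate 2 of statin with CuSO4 (0.68, adjusted p = 0.0541), without replicate 1 of that group (0.0750) and without replicate 3 of statin (0.114). INH1, the peptide that blocks ATP hydrolysis by the enzyme, rose with CuSO4 (0.48 ± 0.16, adjusted p = 0.0276) and with copper added to statin (0.68 ± 0.16, adjusted p = 0.00666), and had 0.11 ± 0.16 with statin and 0.01 ± 0.16 with ZnSO4. Most ATP synthase calls with CuSO4 alone were sensitive to single samples: ATP1, ATP5, ATP7, ATP14, ATP15, ATP19 and INH1 each lost the call in 3 or 4 of the 17 fits, with adjusted p up to 0.0785 to 0.169, and ATP20 lost it in none.

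The NADH dehydrogenases did not move as a family. NDI1, the internal enzyme, had 0.73, 0.56 and 1.17 in statin with CuSO4, 0.20 and 0.57 in statin with ZnSO4, -0.78, -0.67 and -0.60 in statin, 0.10, 0.34 and 0.55 in CuSO4, -0.46, -0.21 and -0.06 in ZnSO4, and -0.52, -0.40 and -0.35 in untreated cultures. All 3 statin samples were lower than the untreated ones, but the difference did not pass (-0.26 ± 0.16, adjusted p = 0.219). Copper raised NDI1 1.68-fold alone (0.75 ± 0.16, adjusted p = 0.00218) and 2.84-fold in statin cultures (1.51 ± 0.16, adjusted p = 6.67e-06), and zinc raised it 2.10-fold in statin cultures (1.07 ± 0.18, adjusted p = 0.000603) and had 0.18 ± 0.16 without statin.

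NDE2, an external enzyme, ran opposite to the complexes. Its log2 ratios were 0.63, -0.69 and 0.16 in statin with CuSO4, -0.97 and -0.73 in statin with ZnSO4, 0.92, 0.17 and 0.76 in statin, -1.20, -1.0 and -0.46 in CuSO4, -0.99, -0.84 and -1.14 in ZnSO4, and -0.37, -0.15 and -0.36 in untreated cultures. The statin samples lay above all untreated samples and those with ZnSO4, with or without statin, lay below them. NDE2 rose 1.88-fold with statin (0.91 ± 0.28, adjusted p = 0.0172) and fell 2.76-fold when zinc was added to statin (-1.46 ± 0.31, adjusted p = 0.00326). The rise with statin did not pass without replicate 1 or 3 of statin (adjusted p = 0.0728 and 0.0611) or without replicate 1 or 3 of untreated (up to 0.0532), and without the third slide its adjusted p was 0.191. The fall with zinc held in all 17 fits that left out 1 sample and did not pass without the third slide (-1.51, adjusted p = 0.127). Metals alone gave -0.60 ± 0.28 (CuSO4) and -0.69 ± 0.28 (ZnSO4), with samples below the untreated ones in each case and adjusted p = 0.109 and 0.105. Both passed without replicate 2 of statin with CuSO4, which moves only the spread shared by all groups, and the CuSO4 change also passed without replicate 3 of CuSO4.

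NDE1, the other external enzyme, had a change of 0.02 ± 0.17 with statin alone (95% interval -0.35 to 0.40). It had 0.80, 0.05 and 0.85 in statin with CuSO4, -0.05 and 0.32 in statin with ZnSO4, -0.16, -0.21 and -0.08 in statin, 0.02, 0.18 and -0.10 in CuSO4, -0.73, -0.50 and -0.58 in ZnSO4, and -0.31, -0.02 and -0.20 in untreated cultures. With ZnSO4 alone, NDE1 was thus lower than in every untreated sample, as NDE2 was. That change did not pass with all samples, and ran from -0.50 to -0.35 over the 17 fits that left out 1 sample. It passed with only the groups compared and without replicate 2 of statin with CuSO4. Copper added to statin raised NDE1 by 0.72 ± 0.17 (adjusted p = 0.00899, and 0.0552 without replicate 3 of statin with CuSO4). CYB2 encodes cytochrome b2, which oxidises lactate and feeds electrons to cytochrome c. It had 1.18, -0.24 and 0.59 in statin with CuSO4, -0.70 and -0.02 in statin with ZnSO4, -0.50, -0.88 and -0.62 in statin, -0.58, -0.65 and 0.23 in CuSO4, -0.60, -0.29 and -0.28 in ZnSO4, and -1.13, -0.65 and -0.95 in untreated cultures. Its 1 call among these 5 comparisons was the rise with copper added to statin (1.18 ± 0.30, adjusted p = 0.0135), which ended without replicate 1 of statin with CuSO4 (0.84, adjusted p = 0.0620). NDE2 passed as lower in that comparison without the same sample, and in none of the other fits that left out 1 sample. In that group NDE2 and CYB2 spread by more than 1 log2 unit between replicates, with replicate 2 the lowest sample for NDI1, NDE1, NDE2 and CYB2.

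**Figure D4:**
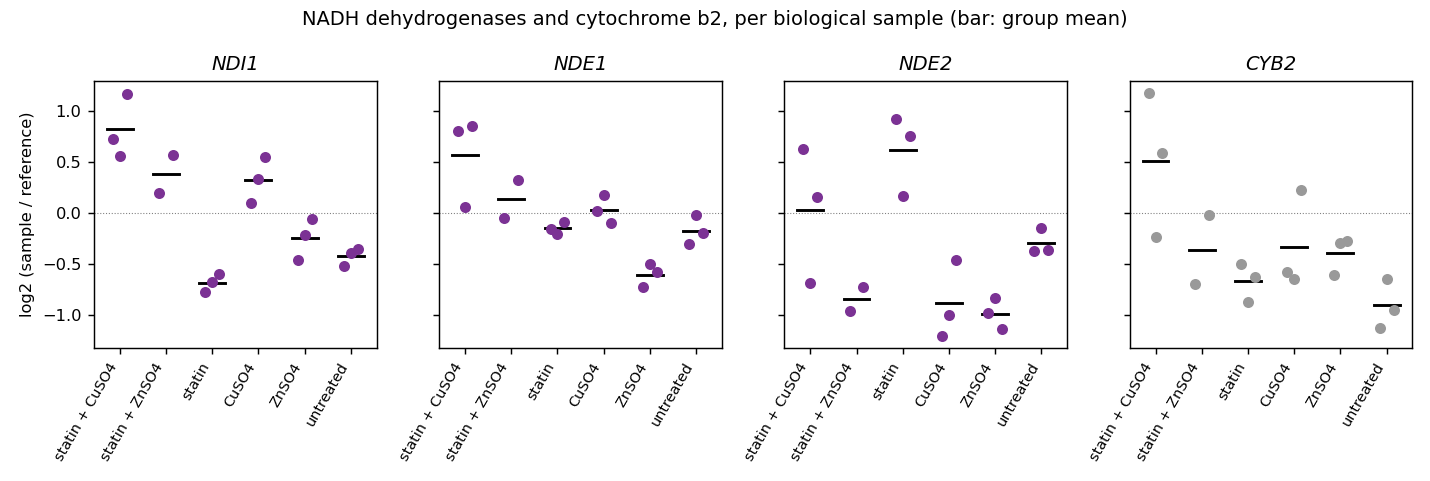
Log2 ratio of sample over pooled reference for NDI1, NDE1, NDE2 and CYB2 in the 17 biological samples (points) of 6 groups, with group means (bars). NDE2 is highest in statin (mean 0.62) and lowest in ZnSO4 (mean -0.99), and NDI1 is lowest in statin (-0.68) and highest in statin with CuSO4 (0.82).

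The design also asks whether a metal acts differently with statin. The change with CuSO4 in statin cultures minus that in statin-free cultures was positive and past the threshold for 12 members and negative for 0 (background 8.13% higher and 10.3% lower over all genes, 20 and 0 members at an unadjusted p under 0.05 in limma). The 12 were NDI1, 7 complex III genes (COR1, QCR2, QCR6, QCR7, QCR10, CYT1 and RIP1), COX6, COX7, COX9 and ATP7. For RIP1 the difference was 1.1 ± 0.18 (adjusted p = 0.000986), from 2.36 with and 1.26 without statin, and for QCR6 it was 1.09 ± 0.21 (adjusted p = 0.00176). Medians were 0.81 for complex III, 0.62 for complex IV and 0.29 for ATP synthase. The count was 15 without replicate 2 of statin with CuSO4 (COX6 lost, NDE1, COX13, ATP1 and ATP3 gained), 19 with the slide as a block, 6 after scaling between arrays and 1 (QCR7) without the third slide. COR1, QCR2, QCR6, QCR7, QCR10, CYT1, RIP1 and COX9 kept their call in all 17 fits that left out 1 sample, while NDI1, COX6, COX7 and ATP7 lost it in 6 to 13 of them. Within each slide, all 36 values of the 12 genes were positive, but the 12 were picked by their calls in these same samples. The signs are therefore no separate support.

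For ZnSO4 the same difference passed for 4 members, QCR2, QCR6, QCR10 and RIP1, all positive and all of complex III, and for 0 in the other direction (background 0.660% higher and 0.375% lower, 16 and 0 members at an unadjusted p under 0.05 in limma). RIP1 gave 1.03 ± 0.19 (adjusted p = 0.0159) and QCR6 1.03 ± 0.22 (adjusted p = 0.0325). The count was 7 with the slide as a block and 0 after scaling between arrays or without the third slide. It was 0 to 2 in 9 of the fits that left out 1 sample (either sample of statin with ZnSO4, replicate 1 or 3 of statin or ZnSO4, or any untreated sample). The members' medians were similar for the metals, 0.51 for CuSO4 and 0.54 for ZnSO4, against 0.04 and 0.01 over all genes. Since the statin samples and the untreated samples enter both differences, the counts for copper and zinc are not independent of each other.

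**Figure D5:**
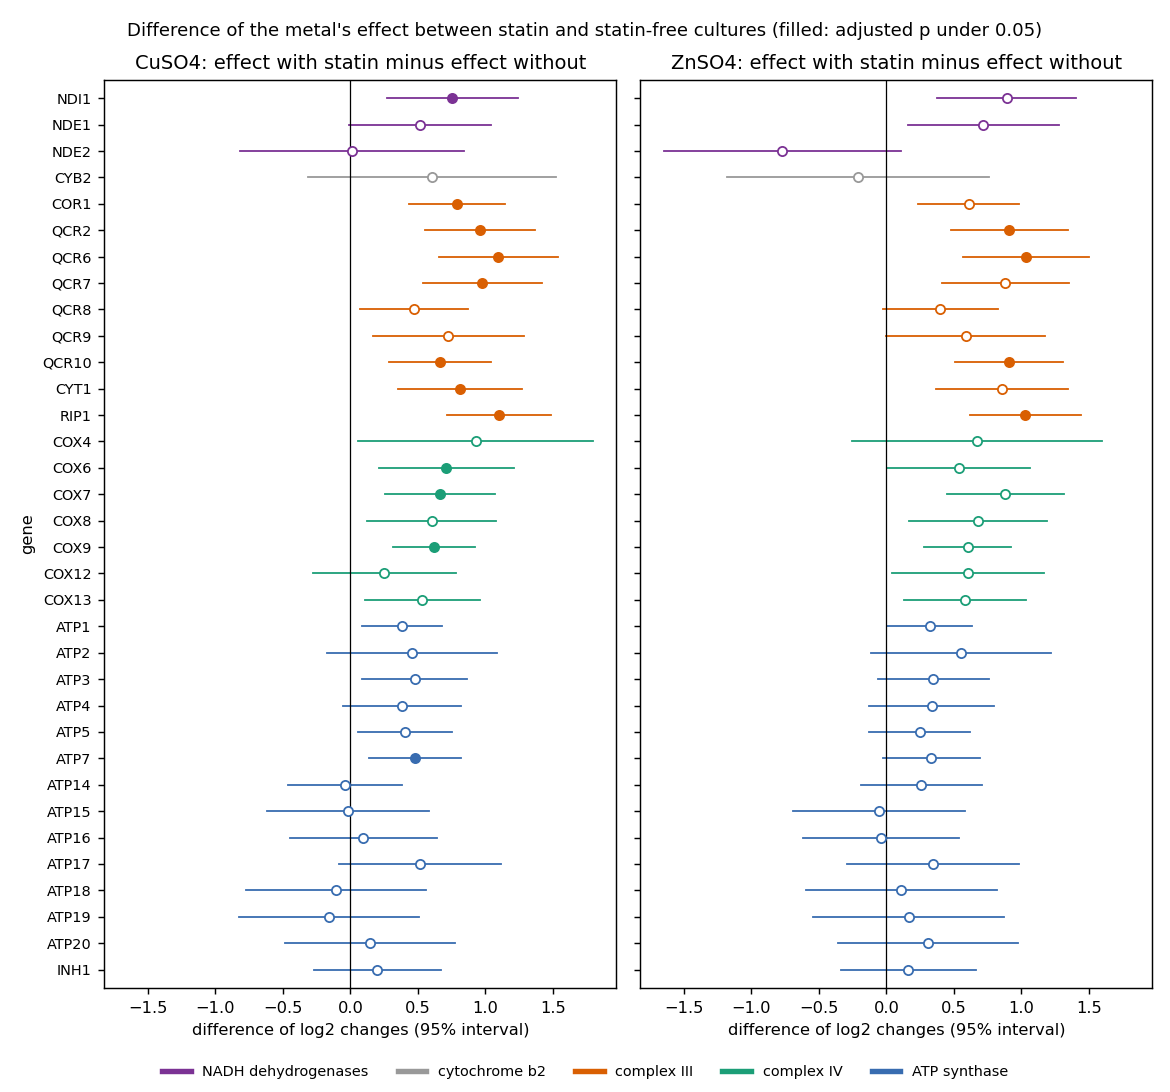
Change with CuSO4 (left) or ZnSO4 (right) in statin cultures minus the change in statin-free cultures, on the log2 scale, for each of the 34 genes (points, with 95% intervals; filled, adjusted p under 0.05). Points of complex III lie between 0.47 and 1.1 for CuSO4 and between 0.40 and 1.03 for ZnSO4, and those of ATP14 to ATP16 lie near 0 for CuSO4.

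Read the other way, statin lowered no member past the threshold in the presence of a metal. In cultures with CuSO4, statin raised 6 and lowered 0 (background 21.0% higher and 23.3% lower, 8 and 0 at an unadjusted p under 0.05 in limma), namely NDI1 (0.49 ± 0.16), NDE1 (0.54 ± 0.17), NDE2 (0.92 ± 0.28), CYB2 (0.84 ± 0.30), QCR6 (0.59 ± 0.15) and QCR8 (0.51 ± 0.13). QCR6 and QCR8 held in all 17 fits that left out 1 sample, while the other 4 did not, and the count was 8 without replicate 2 of statin with CuSO4, 2 or 3 without replicate 1 or 3 of that group or replicate 1 of CuSO4, and 1 without the third slide. NDE1 reversed within the second slide, at -0.13. Among the genes that statin alone lowered, differences near 0 were found for COR1 (-0.01, 95% interval -0.26 to 0.24) and CYT1 (-0.10, -0.42 to 0.23).

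In cultures with ZnSO4, statin raised 5 members and lowered 0 (background 14.4% higher and 14.2% lower, 6 and 1 at an unadjusted p under 0.05 in limma). They were NDI1 (0.63 ± 0.18), NDE1 (0.74 ± 0.19), QCR6 (0.53 ± 0.16), QCR8 (0.44 ± 0.15) and COX7 (0.51 ± 0.15). None of the 5 passed without replicate 3 of statin with ZnSO4, which leaves 1 sample in that group, or without the third slide, and 2 or 3 passed without replicate 2 of statin with ZnSO4 or replicate 1 or 3 of ZnSO4. With 6 and 5 of 34 higher, the members stood close to the background in both comparisons, and with 0 lower they stood below it.

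Copper and zinc were also set against each other. CuSO4 was given at 1 mM and ZnSO4 at 2 mM, so metal and dose cannot be told apart in these comparisons. Without statin, 5 members were higher with CuSO4 than with ZnSO4 and 0 lower (background 9.03% and 6.65%, 11 and 1 at an unadjusted p under 0.05 in limma): NDI1 (0.57 ± 0.16), NDE1 (0.64 ± 0.17), QCR10 (0.47 ± 0.12), COX12 (0.61 ± 0.18) and ATP14 (0.57 ± 0.14). Each lost its call in at least 1 fit that left out a sample. The count was 1 without replicate 2 of ZnSO4, 3 without replicate 1 or 2 of CuSO4, 2 without the third slide, 3 among probes well above background on every array and 10 with the slide as a block. With statin, 0 members differed in either direction (background 0.232% and 0.250%, 13 and 0 at an unadjusted p under 0.05 in limma), although 33 of the 34 differences were positive, with a median of 0.29 against 0.01 over all genes. Without replicate 2 of statin with CuSO4, 7 members were higher with copper (NDE1, NDE2, CYB2, COR1, RIP1, ATP1 and ATP3). For RIP1 the difference with all samples was 0.37, with a 95% interval of 0.06 to 0.67 that no adjustment for multiple tests has widened.

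Most members varied together over the 17 samples. As a description, the median Pearson r between pairs of genes was 0.933 within complex III (36 pairs), 0.789 within complex IV (21 pairs) and 0.662 within ATP synthase (91 pairs), and 0.866 between complexes III and IV, 0.690 between complex III and ATP synthase and 0.716 between complex IV and ATP synthase. Genes of complex IV and of ATP synthase thus had lower medians within their own complex than with complex III. The closest pair was QCR2 and RIP1 (r = 0.982, n = 17), and the most opposed was NDE2 and COX9 (r = -0.726, n = 17). Against the mean of the other 33 members, NDE2 had r = -0.473, NDE1 0.443 and INH1 0.647, whereas QCR10, RIP1, ATP7 and QCR9 had 0.960 to 0.972. All samples share 1 reference pool and fall into 6 groups, so these values mostly describe the differences between groups. The 10 other genes whose values over the 17 samples correlated best with the mean of the members were SDH3 (r = 0.969), CTT1 (0.963), KGD2 (0.936), HAP4 and FMP10 (0.933 each), SDH2 (0.931), COX5A (0.930), CYT2 (0.928), SCS7 (0.927) and CYC1 (0.918).

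Genes that work beside the members were read from lists of their own. Over all genes tested, 18.0% were higher and 18.8% lower with statin, 18.0% and 16.6% with CuSO4, and 8.79% and 7.76% with ZnSO4. With copper added to statin 9.44% were higher and 7.31% lower, and with zinc added to statin 11.7% and 10.3%. Of 4 genes for isoforms of cytochrome c and of the Cox5 subunit of complex IV, 3 fell with statin, 3 rose with CuSO4, 2 with ZnSO4, and 3 with either metal added to statin. Among them, CYC1, the main cytochrome c gene, fell with statin (-0.84 ± 0.22, adjusted p = 0.00752) and rose by 2.59 ± 0.22 with CuSO4, 2.02 ± 0.22 with ZnSO4, and 2.91 ± 0.22 and 2.65 ± 0.25 when copper and zinc were added to statin. COX5A, the aerobic form of a complex IV subunit, followed it at -0.58 ± 0.14 with statin and 1.50 ± 0.14 with copper added to statin. All 4 genes of succinate dehydrogenase, complex II of the chain, rose in each of the 4 metal comparisons, with medians of 1.68 and 1.40 without statin and 2.72 and 2.23 with it, and 1 of the 4 fell with statin (median -0.15). With statin, SDH2 had -0.12 ± 0.17 and SDH4 -0.19 ± 0.16, neither past the threshold.

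The assembly and translation factors of the complexes were mixed. Of 11 factors for complex III, 4 fell with statin, 4 rose with CuSO4 and 5 rose with either metal added to statin, led by CBP4 (1.45 ± 0.18 with copper added to statin) and CBP6 (-0.68 ± 0.12 with statin). Over all genes tested, 18.8% were lower with statin, 18.0% higher with CuSO4, and 9.44% and 11.7% higher with copper and zinc added to statin. Against 18.8% of all genes tested lower and 18.0% higher with statin, 10 of 28 tested factors for complex IV fell and 1 rose. Among them COX17, the copper chaperone for the complex, fell by 0.59 with statin and rose by 1.05 ± 0.18 with CuSO4, and COX15, which takes part in making heme a, fell by 0.66 with statin. With copper added to statin 3 of these 28 rose and 3 fell, close to the 9.44% higher and 7.31% lower of all genes tested. Of 14 ATP synthase factors, 1 rose and 1 fell with statin, a smaller share than the 18.0% and 18.8% of all genes tested. NCA3, required in yeast for expression of the mitochondrial ATP6 and ATP8 genes, rose by 2.28 ± 0.36 with statin, and STF2, which modulates the inhibitor, fell by 1.20 with ZnSO4.

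Other electron donors and the carriers that exchange ATP, ADP and phosphate were mixed. With 4 and 5 genes, these lists are too short to set their counts against the shares over all genes tested. Those shares were 9.44% higher and 7.31% lower with copper added to statin, and 11.7% and 10.3% with zinc. For the single agents they are given below with the regulators. Of 4 further dehydrogenases, 2 fell with statin, 1 rose and 1 fell with each metal alone, and 2 rose with copper added to statin; PUT1, the proline oxidase, rose by 1.27 ± 0.34 with copper added to statin, and GUT2, the glycerol-3-phosphate dehydrogenase, fell by 0.87 with ZnSO4. Of 5 carriers, 2 rose and 1 fell when either metal was added to statin: MIR1, the phosphate carrier, rose by 1.01 ± 0.18 with copper, and AAC3, the hypoxic ADP/ATP carrier, fell by 1.13. Of 11 regulators, 2 rose and 2 fell with statin, where 18.0% of all genes tested were higher and 18.8% lower. With CuSO4, 1 rose and 4 fell (18.0% and 16.6% of all genes), and with ZnSO4, 0 rose and 2 fell (8.79% and 7.76%). HAP4, the activating subunit of the CCAAT-binding complex that induces respiratory genes, fell by 0.64 with statin (adjusted p = 0.000883), rose by 0.44 ± 0.12 with CuSO4, 1.27 ± 0.12 with copper added to statin and 0.89 ± 0.14 with zinc added to statin, and had -0.07 ± 0.12 with ZnSO4 alone.

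CTH2 encodes an RNA-binding protein that, in yeast short of iron, promotes the decay of mRNAs for iron-using proteins, and its values ran opposite to those of the complexes in the metal comparisons. Its log2 ratios were -0.19, -1.88 and -1.0 in statin with CuSO4, -1.0 and -1.34 in statin with ZnSO4, 1.36, 0.79 and 1.29 in statin, -1.81, -2.67 and -2.38 in CuSO4, -0.80, -1.34 and -1.11 in ZnSO4, and 0.77, 0.11 and 0.30 in untreated cultures. All samples with a metal lay below all samples without one. CTH2 fell by 2.68 with CuSO4 (-2.68 ± 0.34, adjusted p = 3.11e-05), by 1.47 with ZnSO4, and by 2.17 and 2.32 when copper and zinc were added to statin. Whether this bears on the member genes was not tested.

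The mitochondrial genes for subunits of the same complexes gave no call. Of 7 on the list, 6 were tested (COB, COX1, COX3, ATP6, ATP8 and OLI1), and 0 of 6 passed in any of the comparisons or in limma's F test, with 1 higher and 0 lower at an unadjusted p under 0.05 with statin against untreated and 0 in the other comparisons. Their mean log2 ratio ran from -0.40 to 0.47 in statin with CuSO4, from -0.45 to 0.86 in statin and from -0.57 to 0.16 in untreated cultures. The SD within groups was 0.15 to 0.68, against 0.02 to 0.20 for complex III. Replicate 1, on the first slide, was the highest sample in every group that had one, at 0.16 to 0.86, against -0.68 to 0.19 for all other samples.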

How the data were processed

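Per the submitters' processing notes, spots on the scanned 2-colour arrays were quantified in Feature Extraction (Agilent, release 10.5.1.1). The median spot and background intensities used here were deposited by the authors as the scanner software gave them, with no normalization, per the file headers. The authors' deposited value table holds log10 ratios of sample over reference, equal to the scanner's dye-normalized log10 ratios with the sign turned (largest difference 5e-06). Its column medians ran from 0 to 0.00326. From the deposited intensities, log2 ratios of sample (Cy3) over reference (Cy5) were computed with limma 3.58.1 in R 4.3.3 (normexp with offset 50, loess within arrays, control spots at weight 0). The 2 spots of a probe were averaged, then the arrays of a sample, which took 23 arrays to 17 samples.

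Of 6256 probes, 5606 well above background were tested and 650 left out; names followed the array's design, and 5756 matched the R64 annotation. One linear model of 6 groups gave 11 contrasts and an F test, with empirical Bayes moderation, two-sided tests and Benjamini-Hochberg adjustment at 0.05. Members and gene lists were chosen with earlier results of these data known, so counts and medians of lists carry no p-value. All members were named, and of other lists up to 2 called genes with the largest change. The code was tested on simulated data. Replicate number equals slide. Deviations from group means of same-numbered samples correlated at r = -0.0903 to 0.688 (median 0.3115 over 40 pairs, 33 of them over 0.1). Within the comparisons of 2 groups made here, every pair lay over 0.1 except in statin against untreated and in statin with ZnSO4 against ZnSO4. Fits with the slide as a block therefore stand beside results they move. Alternatives left out a sample or the third slide, or changed background, scaling, filter, array averaging or the samples fitted. Array number and dim probes on the third slide limit precision. Protein and promoter sequences are not used here.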

Additional observations from a re-analysis of the deposited data

Results flagged for a closer look

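The metal's change in statin cultures minus its change in statin-free cultures passed the test for 12 members with CuSO4 and 4 with ZnSO4, so these members are listed as differing between cultures with and without statin. With CuSO4, the difference on the log2 scale was 1.1 for RIP1, 1.09 for QCR6, 0.98 for QCR7, 0.96 for QCR2, 0.81 for CYT1, 0.79 for COR1 and 0.66 for QCR10 in complex III. It was 0.71 for COX6, 0.67 for COX7 and 0.62 for COX9 in complex IV, 0.75 for NDI1 and 0.48 for ATP7. With ZnSO4, it was 1.03 for RIP1, 1.03 for QCR6, 0.91 for QCR10 and 0.91 for QCR2. All are positive, meaning a greater rise with the metal in statin cultures. Groups of 2 or 3 samples are too small for a check of single outlying samples.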

How the results depend on the processing

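Over all alternatives, 9916 values of single members kept their direction and side of the threshold, 324 lost the call, 128 gained one, 275 uncalled values changed sign, and 1 called value reversed, NDE1 in statin with CuSO4 against CuSO4 within the second slide (-0.13). With the replicate block (slide), the members higher were 19 for the difference in the CuSO4 effect, 7 for that in the ZnSO4 effect and 10 for CuSO4 against ZnSO4; the block moved no other count of members by over 1.5 times. The scanner's own log ratio left 1 member for the ZnSO4 difference. Scaling between arrays left 10 members lower with statin (complex III median -0.48), 6 for the CuSO4 difference and 0 for the ZnSO4 difference (complex III median 0.60). Probes well above background on every array gave 2 for the ZnSO4 difference and 3 for CuSO4 against ZnSO4. Fits of only the groups compared gave 1 lower with CuSO4, 2 lower with ZnSO4 and 2 higher in statin with CuSO4 against CuSO4. The cause was not tested for these. Without the third slide, a choice made after seeing the data, 0 were higher and 8 lower with statin, 0 lower in statin with ZnSO4 against statin, 1 higher in statin with CuSO4 against CuSO4, 0 higher in statin with ZnSO4 against ZnSO4, 1 for the CuSO4 difference, 0 for the ZnSO4 difference and 2 for CuSO4 against ZnSO4.

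Leaving out 1 sample at a time gave 0 to 1 higher and 10 to 18 lower with statin, 0 to 1 lower with CuSO4, 0 to 2 lower with ZnSO4, 0 to 1 lower in statin with CuSO4 against statin, 2 to 8 higher in statin with CuSO4 against CuSO4 (complex III median 0.007 to 0.22), 0 to 6 higher in statin with ZnSO4 against ZnSO4, 0 to 6 for the ZnSO4 difference, 1 to 7 for CuSO4 against ZnSO4 and 0 to 7 for statin with CuSO4 against statin with ZnSO4. Where this left 1 sample of statin with ZnSO4, that sample is assumed to vary like the other groups. Within single slides some medians moved by more than the replicate spread. Within slide 1 the statin change of ATP synthase was -0.071. Within slide 2 that of complex III was -0.55, statin with CuSO4 against statin gave 0.26 (NADH dehydrogenases), 1.43 (complex III) and 0.99 (complex IV), statin with ZnSO4 against ZnSO4 0.34 (complex IV), the CuSO4 difference 0.0645 (NADH dehydrogenases), CuSO4 against ZnSO4 0.0805 (complex III), and statin with CuSO4 against statin with ZnSO4 0.15 (complex III). Within slide 3 the statin change of ATP synthase was -0.55, ZnSO4 against untreated gave 0.57 (complex III), statin with CuSO4 against statin 2.09 (complex III), statin with ZnSO4 against statin 1.35 (complex IV) and statin with ZnSO4 against ZnSO4 0.38 (complex III).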
